A study of Homo sapiens with 24 samples.

Results

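Grainyhead factors and the other transcription factors of epithelial identity were followed as 10 of the 28278 genes counted in TYUC-1, a human cell line from a neuroendocrine carcinoma of the esophagus that grows in suspension. The 10 were chosen by name: GRHL1, GRHL2, GRHL3, OVOL1, OVOL2, ELF3, KLF4, KLF5, ZNF750 and PITX1. Of these, 9 had enough reads to be tested and ZNF750 had none. A pair of engineered lines carried either TAp63 or ΔNp63 under doxycycline control, the genotypes named i-TAp63 and i-ΔNp63. TP63 is transcribed from a pair of promoters, and ΔNp63, the shorter product, lacks the N-terminal transactivation domain that TAp63 has. RNA was sequenced after 1, 3 and 6 days of doxycycline at 1 µg/ml within a 6-day course, DMSO filling the rest, and after 6 days of DMSO alone (day 0). Each of the 8 groups of line and day had 3 libraries, described by the submitters as biological replicates. A further label on each sample names EPZ-6438, which blocks the polycomb enzyme EZH2, for the same number of days as doxycycline. Effects of p63 and of that inhibitor, if it was given, cannot be told apart. How the cultures were kept apart is not stated, so a p-value here reflects library-to-library spread, which may be technical.

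Grainyhead-like factors (GRHL1, GRHL2 and GRHL3) bind DNA as dimers and keep the genes of epithelial junctions and of the skin barrier active. GRHL2 is the member known for maintaining simple and branching epithelia, and GRHL1 and GRHL3 are better known in stratified epithelia, where they act on desmosome and cornified envelope genes. OVOL1 and OVOL2 are zinc finger repressors that oppose the mesenchymal programme. ELF3 is an epithelial ETS factor, KLF4 and KLF5 are Krüppel-like factors of the differentiating and the proliferating layers, ZNF750 is a p63 target of terminal keratinocyte differentiation in human epidermis, and PITX1 is a homeodomain factor also known in squamous epithelium. In stratified epithelia ΔNp63 is the isoform of the basal layer. Levels below are in CPM (counts scaled to a common library size, after TMM adjustment), and a gene is said to have risen or fallen where edgeR's quasi-likelihood test gave a Benjamini-Hochberg adjusted p under 0.05 over all 15642 genes tested.

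The promoter windows of GRHL1 and GRHL3, the Grainyhead genes that the changes below concern most, are shown because a p53-family and a Grainyhead motif were looked for in them. Each runs from 250 bases before to 50 bases after a RefSeq transcription start (GRCh38.p14), in lower case, with capitals marking a match to the p53-family half-site.
GRHL1, chr2:9951443-9951742, plus strand: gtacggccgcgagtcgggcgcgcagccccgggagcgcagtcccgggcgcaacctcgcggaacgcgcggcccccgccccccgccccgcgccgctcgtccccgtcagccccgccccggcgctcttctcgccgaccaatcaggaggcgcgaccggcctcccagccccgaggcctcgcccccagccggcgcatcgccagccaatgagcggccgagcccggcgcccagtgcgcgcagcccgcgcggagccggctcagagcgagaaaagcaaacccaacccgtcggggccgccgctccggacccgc
GRHL3, first start, chr1:24319107-24319406, plus strand: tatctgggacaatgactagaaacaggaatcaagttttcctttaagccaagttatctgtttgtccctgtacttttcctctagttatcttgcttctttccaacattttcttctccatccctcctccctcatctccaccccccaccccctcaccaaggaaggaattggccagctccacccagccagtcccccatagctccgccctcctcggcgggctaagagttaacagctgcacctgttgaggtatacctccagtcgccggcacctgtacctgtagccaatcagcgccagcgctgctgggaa
GRHL3, second start, chr1:24322790-24323089, plus strand: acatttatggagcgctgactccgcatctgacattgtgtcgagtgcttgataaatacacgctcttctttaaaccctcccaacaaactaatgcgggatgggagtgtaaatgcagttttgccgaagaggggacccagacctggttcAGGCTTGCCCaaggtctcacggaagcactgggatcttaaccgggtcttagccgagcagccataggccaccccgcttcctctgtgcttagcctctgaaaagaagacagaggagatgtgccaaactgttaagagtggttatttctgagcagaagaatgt
GRHL1's window was 79.7% G and C with 52 CG dinucleotides, against a median of 58.7% and 14 over all 35116 RefSeq windows. The GRHL3 windows held 53% and 50% G and C, with 7 and 10 CG dinucleotides. The p53-family half-site, which reads as the same motif on both strands, was present in 1 of 8 windows available for 6 of the 10 genes (ELF3, GRHL1, GRHL3, KLF4, KLF5 and PITX1). That match was in the second GRHL3 window, 107 bases before the start, and 6.6% of all windows held one. The Grainyhead motif, searched as AACNNGTT on both strands, matched in 0 of the 8 windows and in 3.5% of all windows. These matches describe letters in a window and show no binding.

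Library totals ran from 1530847 to 22019974 counts, and the lowest belonged to replicate 3 of ΔNp63 day 1. That library stood apart: it scored -193.9 on a first principal component holding 49.6% of the variance, where the other 23 lay between -17 and 24.9. HBG2, a fetal globin gene, reached 1730 CPM in it and VIM, a mesenchymal filament gene, 835 CPM, against at most 30.6 and 21.6 CPM in any other library. The induced gene TP63 was at 69.2 CPM in it, against 721 and 576 CPM in the other 2 libraries of ΔNp63 day 1. Whether it is a mixed or mislabelled library was not tested, and it is kept under its label unless stated. All 9 tested factors were at their lowest of 24 libraries in it. GRHL2 had 60.5 CPM there, against a mean of 203 CPM in the other 2 libraries of ΔNp63 day 1, and GRHL1 had 25.9 CPM, against 33.8 CPM. Results that rest on it are given with and without it. Leaving it out also changed the SE of log2 changes between other groups. For day 6 against day 0 of ΔNp63 the SE for GRHL2 was 0.24 with it and 0.0932 without it. For OVOL2 the SE was 0.193 with it and 0.116 without it, and for GRHL1 0.117 and 0.1. TP63 itself averaged 655 CPM on day 6 and 2.93 CPM on day 0 in the TAp63 line, and 926 CPM on day 6 and 4.35 CPM on day 0 in the ΔNp63 line. In the other 23 libraries the tuft cell factor POU2F3 had a median of 172 CPM, and the neuroendocrine markers INSM1 and CHGA had medians of 0.318 and 0.385 CPM. CDH1, which encodes the epithelial cadherin, was at 456 CPM on day 0 of the ΔNp63 line, before induction.

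GRHL1 rose with days of ΔNp63, the single factor of the 9 to pass the test in the main fit of all libraries. Other factors passed in other settings, given below. GRHL1 did not pass the test in the TAp63 line. In the TAp63 libraries its level was 34.7, 34.1 and 33.2 CPM on day 0, 35.5, 34.8 and 34.8 CPM on day 1, 33.5, 38.4 and 33.8 CPM on day 3, and 41.8, 36.5 and 42.0 CPM on day 6. The 3 libraries of day 6 lay above those of day 0, as did those of day 1, and day 3 overlapped with day 0. How often groups separate in this way among all genes was not counted, here or below. The log2 change at day 6 was 0.24 ± 0.116 (adjusted p = 1.00). No member was called in the TAp63 line at day 1, 3 or 6 by edgeR or by DESeq2. In edgeR 0, 1 and 1 factors had an unadjusted p under 0.05. At day 6 DESeq2 gave an unadjusted p of 0.0331 for GRHL1 and 0.00356 for GRHL3. The share of all genes called by edgeR was 0.121% on day 1, 0.435% on day 3 and 0.441% on day 6.

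In the ΔNp63 libraries, where GRHL1 rose, its level was 31.6, 31.4 and 32.8 CPM on day 0, 32.8, 34.8 and 25.9 CPM on day 1, 37.8, 47.2 and 49.2 CPM on day 3, and 62.0, 65.9 and 57.2 CPM on day 6. Every library of day 3 lay above every library of day 0, and every library of day 6 lay above every library of day 3. GRHL1 averaged 61.7 ± 4.34 CPM on day 6 and 31.9 ± 0.764 CPM on day 0 (SD, n = 3 each), a log2 change of 0.95 ± 0.117 (SE; adjusted p = 3.32e-05). On day 3 the log2 change was 0.49 ± 0.116 (adjusted p = 0.0275). The day 6 call held with each library left out in turn (adjusted p from 2.87e-06 to 0.00071), whereas the day 3 call was lost when any replicate of day 0, or replicate 2 or 3 of day 3, was left out (adjusted p up to 0.183). At day 6, 1 of 9 factors was called higher and 0 lower, where 1.62% of all genes tested were called higher and 0.416% lower. At day 3 GRHL1 was again the 1 of 9 called higher, where 1.66% of all genes were.

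The difference between the lines in GRHL1 was itself tested. Its log2 change by day 6, 0.24 in the TAp63 line and 0.95 in the ΔNp63 line, differed by -0.71 ± 0.164 (TAp63 minus ΔNp63), with an adjusted p of 0.153. Without the ΔNp63 day 1 library that stood apart the adjusted p was 0.0299, with the replicate number as a block it was 0.0571, with both it was 0.0019, and with DESeq2 it was 0.00597. The log2 difference was -0.71 or -0.72 in all of these, and the calls differed. At day 6, 0 of 9 factors were called in this interaction, with 1 at an unadjusted p under 0.05, where 0.0831% of genes were called. DESeq2 called 1 lower, GRHL1, where it called 0.166% of genes lower. By day 3 the GRHL1 difference was -0.43 ± 0.164 (adjusted p = 1.00), and it did not pass with the block, without the library that stood apart, with both or with DESeq2 (adjusted p from 0.145 to 1.00).

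Ordered by mean, the 8 groups ran for GRHL1 from ΔNp63 day 1 (31.2 CPM) and ΔNp63 day 0 (31.9 CPM) through TAp63 day 0 (34 CPM), TAp63 day 1 (35 CPM), TAp63 day 3 (35.2 CPM) and TAp63 day 6 (40.1 CPM) to ΔNp63 day 3 (44.7 CPM) and ΔNp63 day 6 (61.7 CPM). Neighbours overlapped in their libraries except at 3 steps: TAp63 day 0 and ΔNp63 day 0, TAp63 day 1 and TAp63 day 0, and ΔNp63 day 6 and ΔNp63 day 3. The genes whose 8 group means followed those of GRHL1 most closely were GRIP1 (Pearson r = 0.984), P2RX4 (r = 0.98) and DCBLD2 (r = 0.97). These are correlations over 8 group means that share their libraries and are given as a description.

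**Figure D1:**
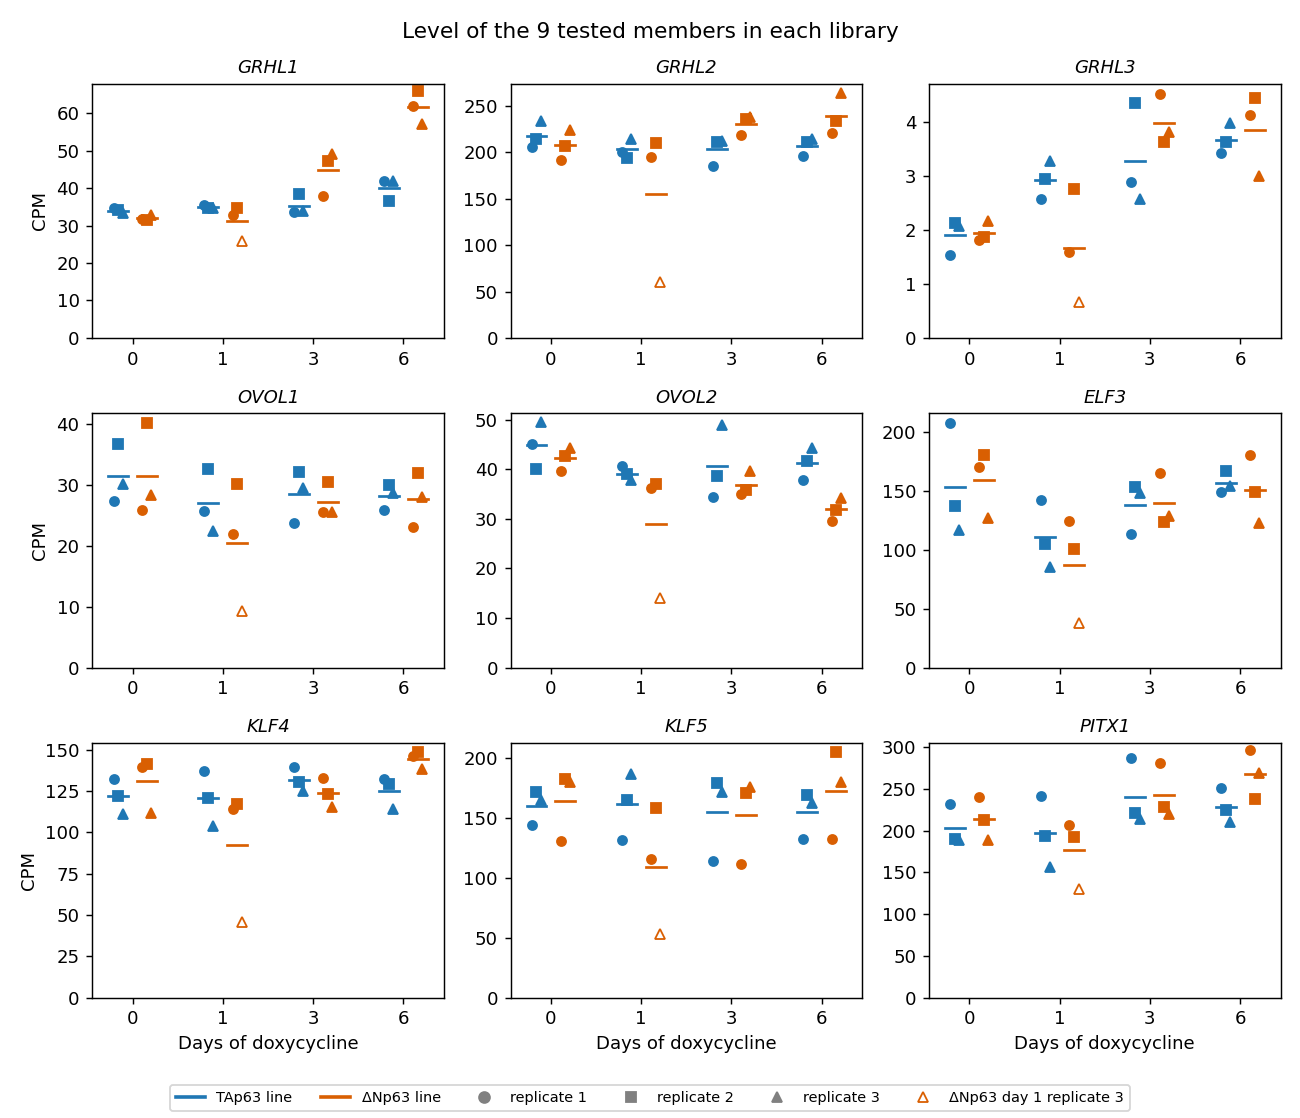
Level of each of the 9 tested factors in CPM (vertical axes, each starting at 0) against days of doxycycline, with a symbol per library shaped by replicate number, a bar at each group mean, the TAp63 line in blue and the ΔNp63 line in orange. The open triangle is replicate 3 of ΔNp63 day 1, the lowest of 24 libraries in all 9 panels. GRHL1 in the ΔNp63 line lies between 57.2 and 65.9 CPM on day 6, above every other group.

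GRHL3, the Grainyhead factor of the skin barrier, had low counts and lay above its day 0 level in both lines at days 3 and 6. TAp63 libraries had 1.54, 2.13 and 2.07 CPM on day 0, 2.57, 2.95 and 3.28 CPM on day 1, 2.90, 4.35 and 2.57 CPM on day 3, and 3.43, 3.63 and 3.98 CPM on day 6. ΔNp63 libraries had 1.81, 1.87 and 2.17 CPM on day 0, 1.59, 2.76 and 0.665 CPM on day 1, 4.52, 3.63 and 3.83 CPM on day 3, and 4.13, 4.46 and 3.00 CPM on day 6. All libraries of days 1, 3 and 6 lay above day 0 in the TAp63 line, and all libraries of days 3 and 6 did so in the ΔNp63 line.

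The test of GRHL3 fell on either side of the threshold. For the TAp63 line its log2 change was 0.77 ± 0.281 at day 3 (adjusted p = 0.666) and 0.91 ± 0.279 at day 6 (adjusted p = 0.378). In the ΔNp63 line it was 1.03 ± 0.275 at day 3 (adjusted p = 0.0548) and 1.00 ± 0.279 at day 6 (adjusted p = 0.0735). Without the library that stood apart GRHL3 passed in the ΔNp63 line, with an adjusted p of 0.0085 at day 3 (4.35% of genes called higher) and 0.0123 at day 6 (3.52%). With the replicate number as a block it passed as well, at 0.0178 (4.21% of genes) and 0.0319 (3.22%). With the block and without that library, GRHL3 was also called in the TAp63 line, with an adjusted p of 0.0345 at day 3 and 0.0179 at day 6. It was the 1 of 9 factors called there, where that setting called 3.2% of genes higher at day 3 and 2.95% at day 6. Leaving out 1 library at a time gave log2 changes of 0.88 to 1.13 at day 6 of ΔNp63. The GRHL3 span overlaps STPG1 over 16.6% of its length, and fragments touching both genes went uncounted.

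GRHL2, the Grainyhead factor of simple epithelia, did not pass the test in either line. Its day 6 level was 207 ± 10 CPM in the TAp63 line, against 218 ± 14 CPM on day 0. The ΔNp63 line had 221, 234 and 264 CPM on day 6, against 192, 207 and 224 CPM on day 0, and the groups overlapped. The log2 change was -0.07 ± 0.24 in the TAp63 line and 0.21 ± 0.24 in the ΔNp63 line (adjusted p = 1.00 in both). In the ΔNp63 line that value was called (adjusted p = 0.0215) only in the blocked fit without the library that stood apart, among the settings tried. That fit called 8.14% of genes higher.

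The OVOL repressors did not pass the test with all libraries. In the ΔNp63 line the OVOL2 libraries of day 6 all lay below those of day 0, as did those of day 1. How many of all genes separate in this way was not counted. TAp63 cells averaged 41.3 ± 3.24 CPM of OVOL2 on day 6 and 44.9 ± 4.67 CPM on day 0, and the groups overlapped. The ΔNp63 libraries had 29.6, 31.9 and 34.3 CPM on day 6, against 39.6, 42.8 and 44.4 CPM on day 0. The log2 change was -0.41 ± 0.193 and did not pass the test (adjusted p = 0.525), though it did without the library that stood apart (adjusted p = 0.0461, where 1.44% of genes were called lower). With the block as well its adjusted p was 0.00187, where 5.94% of genes were called lower. OVOL1 averaged 28.2 ± 2.07 CPM on day 6 and 31.5 ± 4.81 CPM on day 0 in the TAp63 line, and 27.7 ± 4.44 CPM on day 6 and 31.5 ± 7.64 CPM on day 0 in the ΔNp63 line. Its log2 changes with all libraries, -0.16 ± 0.239 in the TAp63 line and -0.19 ± 0.24 in the ΔNp63 line, were smaller than their SE. Without the library that stood apart they were -0.17 ± 0.183 and -0.19 ± 0.184. With the block as well they were -0.16 ± 0.0943 and -0.19 ± 0.0958, larger than their SE and not called (adjusted p = 0.449 and 0.208). OVOL1-AS1 overlaps 18.4% of the OVOL1 span, and fragments touching both genes went uncounted.

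PITX1 was called at day 6 of ΔNp63 in 1 setting. TAp63 libraries had 251, 225 and 210.3 CPM on day 6, against 232, 189.9 and 188 CPM on day 0 (log2 0.17 ± 0.179, adjusted p = 1.00). The ΔNp63 libraries had 296, 238 and 269.5 CPM on day 6, against 239.8, 213 and 189 CPM on day 0, and the groups overlapped through replicate 1 of day 0. Their log2 change was 0.33 ± 0.179 (adjusted p = 0.669), and 0.33 ± 0.0767 (adjusted p = 0.00394) with the block and without the library that stood apart, where 8.14% of genes were called higher. C5orf66 overlaps 14.7% of the PITX1 span.

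KLF4, KLF5 and ELF3 did not pass the test of day 6 against day 0 in any setting tried. In TAp63 cells KLF4 averaged 125 ± 9.53 CPM on day 6 and 122 ± 10.6 CPM on day 0, and KLF5 averaged 154.5 ± 19.4 CPM on day 6 and 159.8 ± 14.2 CPM on day 0. In ΔNp63 cells KLF4 averaged 144.5 ± 5.57 CPM on day 6 and 131 ± 16.8 CPM on day 0, and KLF5 averaged 172 ± 36.7 CPM on day 6 and 164 ± 29.2 CPM on day 0. Day 6 and day 0 libraries overlapped for both genes in both lines. Log2 changes at day 6 were 0.04 ± 0.202 for KLF4 and -0.05 ± 0.27 for KLF5 in the TAp63 line, and 0.14 ± 0.202 and 0.07 ± 0.27 in the ΔNp63 line. ELF3, the epithelial ETS factor, averaged 157 ± 9.14 CPM on day 6 and 154 ± 47.5 CPM on day 0 in the TAp63 line (log2 0.03 ± 0.285), and 151 ± 29 CPM on day 6 and 159 ± 28.5 CPM on day 0 in the ΔNp63 line (log2 -0.08 ± 0.285), and its groups overlapped as well.

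At day 1 no factor was called in the ΔNp63 line by edgeR, which called 0.0959% of genes, or by DESeq2, which called 3.2%. In edgeR 3 factors had an unadjusted p under 0.05 with all libraries and 1 did without the library that stood apart. The median log2 change of the 9 was -0.43 with the library that stood apart in the group, against 0.01 for all genes, and -0.18 without it, against -0.01 for all genes. ELF3 had its lowest mean on day 1 in both lines, and so did OVOL1, KLF4 and PITX1, with or without that library. GRHL2 did so too, though day 1 and day 3 of TAp63 were both at 203 CPM. OVOL2 did so only with that library kept. ELF3 had 143, 105 and 85.3 CPM on day 1 of TAp63, against 207, 137 and 117 CPM on day 0, and those groups overlapped. On day 1 of ΔNp63 it had 125, 100.4 and 37.9 CPM, against 171, 180.5 and 127 CPM on day 0, and those groups did not overlap with or without the third library. The day 6 against day 1 difference of ELF3 in the TAp63 line was called in 1 setting, the blocked fit without the library that stood apart (log2 0.52, adjusted p = 0.0401), where 3.22% of genes were called higher.

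ZNF750 had 0 counts in all 24 libraries. Its gene (chr17:82829434-82840022, minus strand, hg38) lies wholly inside TBCD (100% of its span), and the deposited counts were made over whole gene spans without strand, with fragments that touch 2 genes left out. A count of 0 was therefore to be had at any level of expression, and nothing can be said of ZNF750. The spans of the others in hg38, introns included, are chr2:9951693-10002277 (GRHL1), chr8:101492439-101669724 (GRHL2), chr1:24319357-24364480 (GRHL3), chr11:65787063-65797214 (OVOL1) and chr1:202010587-202017180 (ELF3) on the plus strand. KLF5 is at chr13:73054976-73077542 on the plus strand. On the minus strand are OVOL2 (chr20:18024152-18059188), KLF4 (chr9:107484852-107489769) and PITX1 (chr5:135027734-135034228). Their counts hold unspliced RNA as well as mature messenger.

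**Figure D2:**
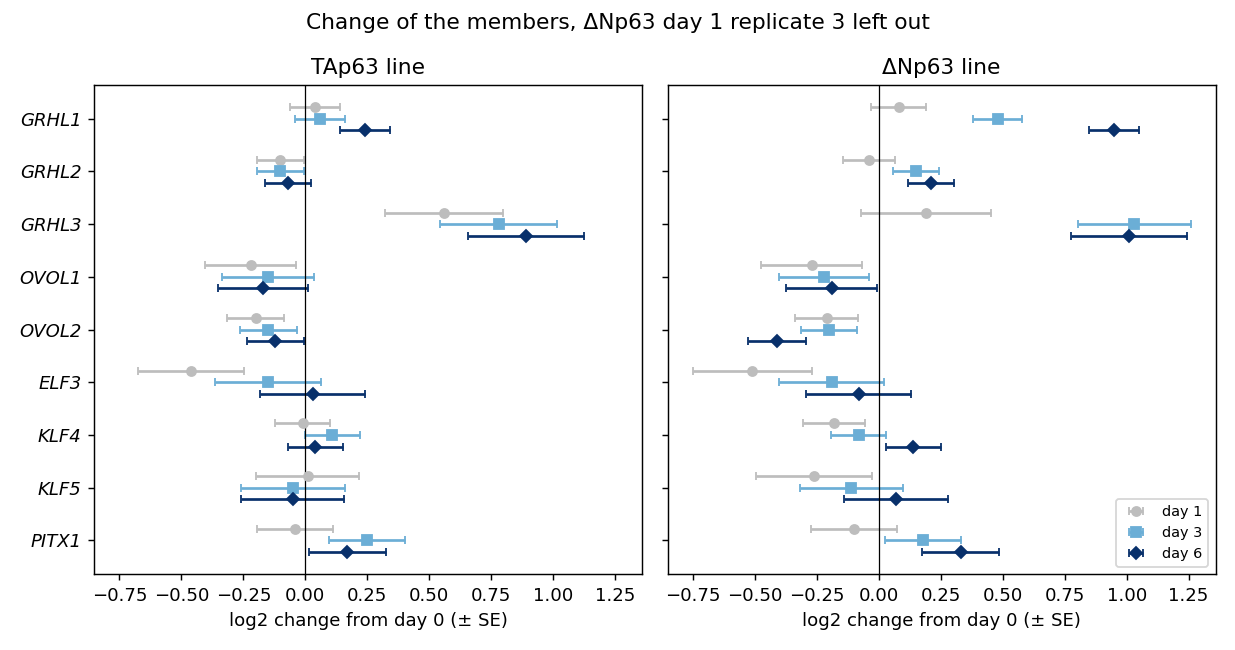
Log2 change from day 0 (horizontal axis, ± SE) of the 9 tested factors at days 1, 3 and 6 in the TAp63 line (left) and the ΔNp63 line (right), from the fit without replicate 3 of ΔNp63 day 1. GRHL1 moves stepwise to 0.95 in the ΔNp63 line, GRHL3 lies near 1 at days 3 and 6, and OVOL2 lies at -0.41 on day 6.

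The time of the GRHL1 change was set beside that of squamous genes, from lists of 26 basal squamous and 61 squamous differentiation genes. In ΔNp63 cells 16 of their 57 tested genes had risen by day 6, where 1.62% of all genes were called higher. These included the basal keratin KRT5 (log2 5.11), the mucosal keratin KRT13 (3.31), the deiminase PADI3 (4.86), TRIM29 (2.18), S100A16 (2.27) and KRT4 (3.01). Of the 16, 1 was first called on day 1 (PADI3), 11 on day 3 and 4 on day 6. GRHL1 was first called on day 3.

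GRHL1 had less of its day 6 change by day 3 than most of these genes. Its change was 0.1% of the day 6 value by day 1 (8.6% without the library that stood apart) and 51.1% by day 3, all on the log2 scale. For 15 of the squamous genes the median was 14.9% by day 1 (range -49.9% to 64.4%) and 76.9% by day 3 (23.2% to 187.1%). KLK7, a desquamation protease, was left out of these percentages because it had 0 counts on day 0. By day 3, 2 of the 15 had a smaller share of their day 6 change than GRHL1: KRT4 at 39.4% and CRNN at 23.2%, both genes of the suprabasal layers of the esophagus (CRNN was named after its values were seen). EMP1 had passed its day 6 change on day 3 (187.1%). All 15 had a larger log2 change at day 6 than GRHL1. These shares use the same day 0 libraries and carry no test.

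Without the library that stood apart 23 squamous genes had a percentage, with a median of 75.8% by day 3, and 4 of them lay below GRHL1's 51.0%. Of those 23, 7 had a smaller log2 change at day 6 than GRHL1. With the block as well, an alternative chosen after seeing the data, 32 genes had a median of 76.7% and 7 lay below GRHL1's 50.6%. With all libraries GRHL3, whose change did not pass the test there, had 2.6% of its day 6 value by day 1 and 103.2% by day 3. The day 1 value includes the library that stood apart, which had 1 count of GRHL3. Without that library the GRHL3 log2 change was 0.19 at day 1, 1.03 at day 3 and 1.01 at day 6. It then passed the test at day 6 (adjusted p = 0.0123). With all libraries, between day 1 and day 6 of ΔNp63, 12 of the 16 squamous genes and GRHL1 were called higher on day 6. GRHL1 differed by 0.95 ± 0.12 (log2, day 6 minus day 1; adjusted p = 0.000128), or 0.87 (adjusted p = 0.000118) without the library that stood apart. It was 1 of 9 factors called, where 1.56% of genes were called higher. With only the 2 groups compared in the fit that call was lost (adjusted p = 0.377). With the block 4 of 9 were called, where 3.78% of genes were called higher: GRHL1, GRHL3, KLF4 and PITX1.

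**Figure D3:**
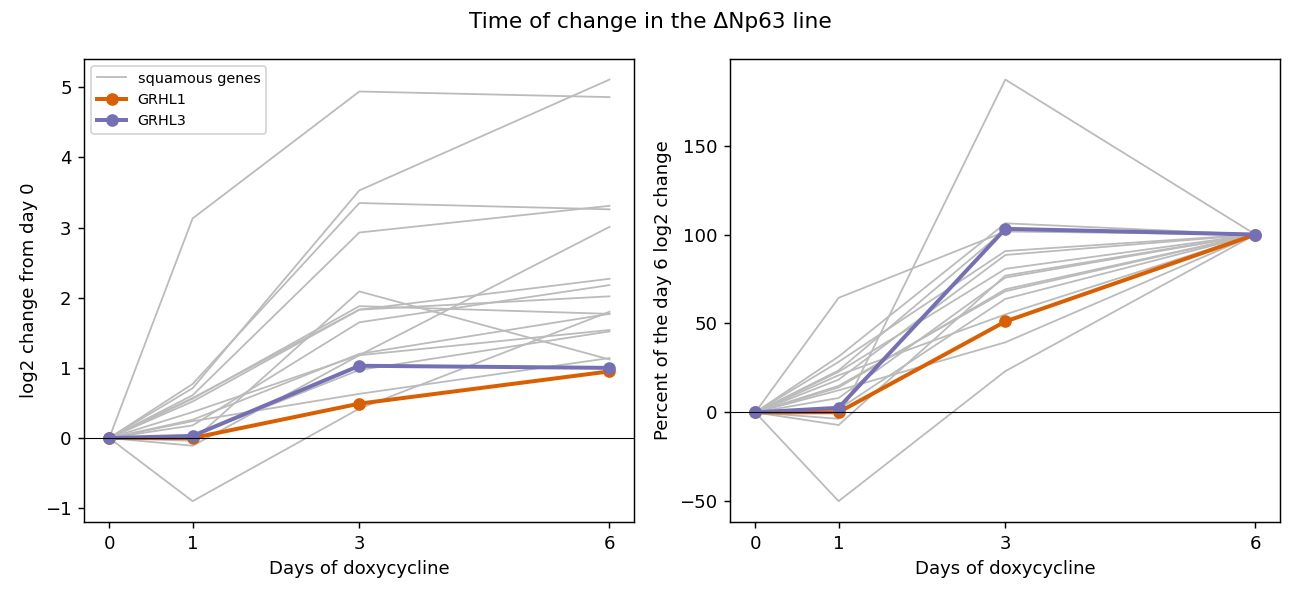
Log2 change from day 0 (left) and the same change as a percent of its day 6 value (right) against days of doxycycline in the ΔNp63 line, for GRHL1 (orange), GRHL3 (purple) and the squamous genes that had risen by day 6 (grey, KLK7 left out). GRHL1 is at 51.1% on day 3, under most grey lines, while GRHL3 is at 103.2%.

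TAp63 cells had 4 squamous genes that had risen by day 6, where 0.428% of all genes were called higher. These (S100A14, KLK7, SPRR3 and S100A16) were all from the differentiation list. Their median share for the 3 with a percentage was -5.9% by day 1 and 91.2% by day 3. Without the library that stood apart 8 had risen, where 0.893% of all genes were called higher, and 1 of them was from the basal list (the laminin receptor BCAM, log2 0.81, adjusted p = 0.00886). With the block as well 17 had risen, where 2.95% of all genes were called higher. No factor was called in this line with all libraries, so no first day called is given for them. GRHL3, whose day 6 change did not pass here (adjusted p = 0.378), had 63.7% of its day 6 value by day 1. By day 3 it had 84.5%, and these shares carry no test. Between the lines at day 0, 0 of 9 were called by edgeR or DESeq2, 0 had an unadjusted p under 0.05, and the largest of the 9 differences was -0.10 in log2 (KLF4, TAp63 minus ΔNp63), where edgeR called 0.0128% of genes.

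Other epithelial regulators were read from a list as well. Of 29 other epithelial transcription factors tested, 2 had risen by day 6 of ΔNp63 and 0 had fallen. Of all genes 1.62% were called higher and 0.416% lower. The median log2 change of the 29 was 0.05, against -0.01 for all genes. Among those that had risen was HES2 (log2 1.29, adjusted p = 0.00129), a Hairy-related repressor. It had 7.94 ± 1.37 CPM on day 6 and 3.24 ± 0.358 CPM on day 0. HES2 had also risen by day 3 (log2 1.21). Without the library that stood apart 2 had risen and 1 (TFAP2A) had fallen, where 3.52% of all genes were called higher and 1.44% lower. With the block as well 6 had risen and 5 had fallen, where 8.14% of all genes were called higher and 5.94% lower. The 5 included TFAP2A (log2 -0.48) and the p63 relative TP73 (log2 -0.35), both named after their values were seen.

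Among 29 tested genes linked to Grainyhead and OVOL function, such as junction proteins and membrane proteases, 2 had risen by day 6 of ΔNp63. None had fallen, and of all genes 1.62% were called higher and 0.416% lower. The median log2 change of the 29 was 0.08. PRSS8, the membrane serine protease prostasin, had 32.3 ± 1.95 CPM on day 6 and 17.9 ± 2.12 CPM on day 0 (log2 0.85, adjusted p = 0.0492). KRT19, a simple epithelial keratin, had 457 ± 64.0 CPM on day 6 and 264 ± 40.4 CPM on day 0 (log2 0.79, adjusted p = 0.0114). Without the library that stood apart 3 had risen and 2 had fallen, against the 3.52% higher and 1.44% lower of all genes, and with the block as well 6 had risen and 4 had fallen, against 8.14% and 5.94%. In that last setting, and named after their values were seen, the protease ST14 (log2 0.22) and its inhibitor SPINT1 (log2 0.44) joined PRSS8 among the genes that had risen. The tight junction genes CLDN4 and CGN had fallen (log2 -0.56 each), with CLDN4 at 86.0 ± 4.17 CPM on day 6 and 127 ± 9.30 CPM on day 0. TAp63 cells had 0 called from the regulator list and 0 from the linked list at day 6 by edgeR and by DESeq2, with 1 and 2 at an unadjusted p under 0.05 in edgeR. Of 6 tested factors of the mesenchymal transition 0 were called at day 6 of ΔNp63 by edgeR or DESeq2, and 0 had an unadjusted p under 0.05. ZEB1 had 0.659 CPM on day 6 and 0.609 CPM on day 0, and ZEB2 had 65.5 CPM on day 6 and 56.9 CPM on day 0. For comparison, 6 of 20 basal squamous genes had risen and 1 (ITGA6) had fallen, with a median log2 change of 0.63, and 10 of 37 squamous differentiation genes had risen, with a median of 0.47. Without the library that stood apart 8 and 16 had risen.

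Some markers of other cell types changed over the same days as GRHL1. At day 6 of ΔNp63, 1.62% of all genes were called higher and 0.416% lower. Of 7 tested tuft cell markers 1, the kinase BMX, had fallen by day 6 of ΔNp63 (log2 -1.63, adjusted p = 1.45e-06), and their summed level was 683 to 788 CPM on day 6 and 909 to 960 CPM on day 0. BMX had fallen in the TAp63 line too (log2 -0.99, adjusted p = 0.00114), with a sum of 807 to 868 CPM on day 6 and 939 to 994 CPM on day 0. The summed immune list in ΔNp63 cells was 500 to 672 CPM on day 6 and 922 to 1100 CPM on day 0, and LYZ alone, a gene that secretory epithelia also express, made up 573 CPM on day 6 and 958 CPM on day 0. Of the 5 tested immune markers 0 were called (2 at an unadjusted p under 0.05; LYZ adjusted p = 0.184), and the T cell marker CD3E was at 0.0479 CPM on day 6 and 0.0219 CPM on day 0. Of 4 fibroblast markers 1, COL3A1, had risen, on 32 counts on day 6 and 2 counts on day 0, and the summed list was 19.3 to 41.1 CPM on day 6 and 14.7 to 41.7 CPM on day 0. Of 8 neuroendocrine, 6 erythroid and 2 endothelial markers 0 were called by edgeR or DESeq2, with 1, 0 and 1 at an unadjusted p under 0.05 in edgeR. Fewer cells of a type and less RNA per cell cannot be told apart in bulk RNA. The part of these markers in the GRHL1 result was not tested.

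Within a group the factors differed by replicate number. Over the 7 groups other than ΔNp63 day 1, KLF5 was lowest in replicate 1 in 7 of 7 groups, with a mean log2 deviation from the group mean of -0.31 (-0.42 to -0.15). PITX1 was highest in replicate 1 in 7 of 7 groups (0.21, from 0.14 to 0.32), and OVOL1 was highest in replicate 2 in 7 of 7 (0.23, from 0.09 to 0.38). KLF4 was lowest and GRHL2 highest in replicate 3 in 7 of 7 groups, by -0.13 and 0.09 on average. GRHL1 showed no such order: replicates 1, 2 and 3 were highest in 2, 2 and 3 of the groups. What the numbers stand for is not given in the labels.

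**Figure D4:**
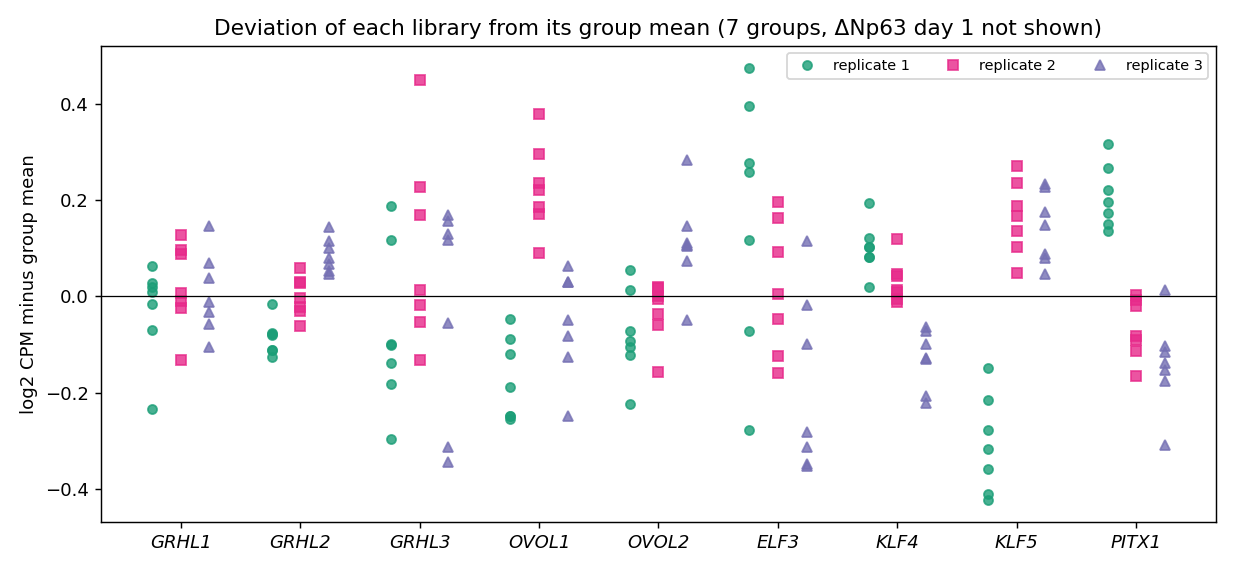
Deviation of each library from its group mean in log2 CPM (vertical axis) for the 9 tested factors, coloured by replicate number, over the 7 groups other than ΔNp63 day 1. Replicate 1 lies below 0 in every group for KLF5 and above 0 in every group for PITX1, while the numbers mix for GRHL1.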

How the data were processed

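TRIzol-extracted RNA went into NEBNext Ultra libraries for a NextSeq 500/550, per the labels' protocols. The submitters' processing notes list HISAT2 2.1.0, featureCounts 1.6.1, DESeq2 and hg38. The deposited table, per the file header, held raw counts from featureCounts 2.0.0 over whole transcript spans of UCSC refGene, paired and without strand, leaving out fragments that overlap 2 genes. A gene's count therefore includes intronic RNA, and overlapping genes are undercounted. The table also gives gene lengths, not used here for levels.

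Counts for 28278 genes (6005 at 0 in all libraries) were fitted in R 4.3.3 with edgeR 4.0.16 (filterByExpr, TMM, glmQLFit, glmQLFTest): 24 libraries in 1 model with a mean per group, 16 residual degrees of freedom, 15642 genes tested, called at an adjusted p under 0.05. Totals were 1530847 to 22019974 counts, with a second lowest of 6375963. In no comparison was the median log2 change over all genes farther than 0.0154 from 0. SE is the absolute log2 change over the square root of F. The fitting was also run on simulated counts with known changes. Those had independent libraries, with no replicate-number effect and no library of outlying composition. That run cannot say how such features affect the calls here. Percent shares of the day 6 change were taken on log2 changes. Motifs were searched in RefSeq promoter windows.

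Alternatives were the replicate number as a block, leaving out libraries, DESeq2 1.42.0, other scalings, other filters and only the groups compared. Same-numbered libraries deviated together: all 63 pairs outside ΔNp63 day 1 correlated over 0.1 (0.16 to 0.689), and 70 of all 84 did. From the data and not the labels, the numbers were taken to pair libraries. Only the blocked alternatives use that pairing. The main fit had no block, so its p-values are unpaired. All 10 members are named, with TP63, up to 6 called genes per list and comparison by size of change, and the 3 genes most like a called member; some genes on the lists are not reported here. Members and lists were chosen with earlier results of these data known.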

Additional observations from a re-analysis of the deposited data

How the results depend on the processing

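GRHL1 at day 6 of ΔNp63 kept its direction and call in every setting tried. Of the counts of factors called and the GRHL1 shares of the day 6 change, 150 recomputed values stayed within their limit of the reported value. Of the counts, 22 rose past it and 7 fell. At day 3 of ΔNp63, 1 factor was called, against 2 with the replicate block, 2 without replicate 3 of ΔNp63 day 1, 2 with both, 2 with DESeq2, 2 with library totals, 2 with the stricter filter (1 CPM in 3 libraries), 0 with no filter, and 0 to 2 with 1 library left out. With only the groups compared, GRHL1 dropped out and GRHL3 came in. Of all genes at day 3, 2.2% were called in the main fit, 6.89% with the block and 6.34% without that library. The share was 23.5% with both and 3.82% with DESeq2. No share was taken for the other settings. At day 6 of ΔNp63, 1 was called, against 2 with the block, 5 with the block and without that library, 2 with DESeq2, and 1 to 3 with 1 library left out (3 without replicate 3 of ΔNp63 day 1: GRHL1 and GRHL3, higher, and OVOL2, lower). The 5 were GRHL1, GRHL2, GRHL3 and PITX1, higher, and OVOL2, lower, where 14.1% of genes were called. The share at day 6 was 2.03% in the main fit, 4.56% with the block, 4.97% without that library and 3.22% with DESeq2. For day 6 against day 1 of ΔNp63, 1 was called, against 4 with the block, 4 with both, 3 with DESeq2, 0 with only the groups compared, and 1 to 6 with 1 library left out (4 without replicate 1 and 6 without replicate 2 of day 1). Of all genes 2.59% were called there in the main fit, 6.5% with the block, 8.51% with both and 7.77% with DESeq2. For the day 6 difference between lines 0 were called, against 1 with both, 1 with DESeq2 and 0 to 1 with 1 library left out. The share of all genes was 0.0831% in the main fit, 1.87% with both and 0.224% with DESeq2. At day 1 of ΔNp63 0 were called, against 0 to 1 with 1 library left out (1, ELF3, lower, without replicate 1 of day 1). The block without that library called 1 factor (GRHL3) at day 3 and 1 at day 6 of TAp63, and 1 (ELF3) for day 6 against day 1 of TAp63. It called 4.57%, 3.6% and 4.13% of all genes in these comparisons. The cause was not tested.

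Reversals were 12, all with 1 library left out and in changes near 0 that were not called. Over the libraries left out, the log2 change ran from -0.02 to 0.09 for GRHL1 at day 3 of TAp63. At day 6 of TAp63 it ran from -0.13 to 0.3 for ELF3, from -0.02 to 0.1 for KLF4 and from -0.12 to 0.05 for KLF5. At day 6 of ΔNp63 it ran from -0.31 to 0.03 for OVOL1, from -0.23 to 0.05 for ELF3 and from -0.07 to 0.23 for KLF5. Of the other values of single factors, 414 kept their side of the threshold, 33 came to pass it and 8 lost it. Depth limits GRHL3 most, with 1013 counts over 24 libraries.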
